A study of Mus musculus with 6 samples.

Results

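The transforming growth factor beta (TGF-β) superfamily genes of the mouse heart were examined in 6 RNA libraries, 3 from Ang II hearts and 3 from Ang II + Tec hearts, the latter called Tec hearts or Tec libraries for short. The genes were chosen by name from the deposited table. These were the protein-coding genes named Tgfb, Tgfbr, Smad, Bmp, Ltbp or Gdf followed by a digit, those whose names begin with Bmpr or Acvr, and the inhibin beta subunits Inhba, Inhbb, Inhbc and Inhbe, with Bmp10 left out. This gave 54 of the 30914 genes listed. All mice were wild-type male C57BL/6J, 8 weeks old at the start, and received angiotensin II (Ang II, the peptide hormone that raises blood pressure) at 1 μg/kg/min from an osmotic pump for 4 weeks. In the Ang II + Tec group, tectochrysin (Tec, a plant flavonoid) was added at 5 mg/kg during the final 2 of these weeks. No library of untreated mice or of mice given Tec alone was analysed here, so the comparison asks only how the genes differed between Ang II hearts with and without Tec. The design names 3 mice per group. The p-values set the difference between the groups against the spread of the 3 libraries within each, which the fit moderates over all tested genes.

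Ligands of this family are secreted dimers that bind a type II receptor kinase, which then activates a type I receptor. TGF-βs and activins signal mainly through SMAD2 and SMAD3, and bone morphogenetic proteins (BMPs) through SMAD1, SMAD5 and SMAD9, in each case with SMAD4, while SMAD6 and SMAD7 inhibit the pathway. TGF-β is stored in the extracellular matrix in a latent form that is held by latent TGF-β binding proteins (LTBPs), and its release acts on cardiac fibroblasts to induce collagen and periostin. In bulk tissue, fewer cells of a type and less RNA per cell cannot be told apart.

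Promoter sequences are shown for a few genes of the family. Ltbp2 and Tgfb2 encode a matrix protein and a ligand that were high in the same libraries. Gdf11 and Gdf15 are the ligands with the lowest unadjusted p in each direction, though the p of Gdf11 is not read as a result, as explained below. Each is the 250 bases before the RefSeq transcription start on GRCm38.p6, all from the minus strand and written 5′ to 3′. Capitals mark the motifs searched on both strands: the cAMP response element TGACGTCA, the AP-1 site TGACTCA, the SMAD box CAGACA, the GC box GGGCGG, the TATA box TATAAA and the E-box CACGTG. Of the 54 genes, 39 had a promoter entry, and Tgfb3 was not among them.
Ltbp2 at chr12:84876492-84876741: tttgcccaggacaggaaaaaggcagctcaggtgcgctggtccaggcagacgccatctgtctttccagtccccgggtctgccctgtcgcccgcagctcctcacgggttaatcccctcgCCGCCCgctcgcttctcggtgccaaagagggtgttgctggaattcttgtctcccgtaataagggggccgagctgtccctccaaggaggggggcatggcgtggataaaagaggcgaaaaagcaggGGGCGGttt
Tgfb2 at chr1:186705990-186706239: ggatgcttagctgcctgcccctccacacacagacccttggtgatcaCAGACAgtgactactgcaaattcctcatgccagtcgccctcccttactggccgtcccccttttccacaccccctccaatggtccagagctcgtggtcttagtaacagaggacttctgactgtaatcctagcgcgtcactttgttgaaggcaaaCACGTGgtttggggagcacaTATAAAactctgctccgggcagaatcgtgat
Gdf11 at chr10:128891719-128891968: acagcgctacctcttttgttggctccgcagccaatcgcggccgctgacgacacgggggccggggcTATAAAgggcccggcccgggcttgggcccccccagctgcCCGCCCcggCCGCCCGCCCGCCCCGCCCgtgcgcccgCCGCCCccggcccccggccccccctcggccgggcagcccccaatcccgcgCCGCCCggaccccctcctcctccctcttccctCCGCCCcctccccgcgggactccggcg
Gdf15 at chr8:70632457-70632706: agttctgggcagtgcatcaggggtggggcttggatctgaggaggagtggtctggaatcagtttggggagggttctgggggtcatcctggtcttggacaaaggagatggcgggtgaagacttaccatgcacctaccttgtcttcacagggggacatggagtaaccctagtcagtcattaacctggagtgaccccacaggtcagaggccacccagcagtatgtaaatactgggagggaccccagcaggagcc

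The Ltbp2 window held 2 GC boxes, 1 on each strand, and its RefSeq start lay 41 bases inside the gene as the deposited table gives it. The Tgfb2 window held 1 SMAD box, 1 E-box and 1 TATA box. The Gdf11 window held 1 TATA box and 8 GC boxes, some overlapping each other, in a sequence with 81.2% G and C. The Gdf15 window held none of these letters. Among all 32851 RefSeq windows that were searched, 32.7% held a GC box, 17.1% a SMAD box, 12.4% a TATA box, 6.02% the E-box, 4.46% the AP-1 site and 1.55% the cAMP response element, so the GC and SMAD matches are of common letters. No factor binding was measured.

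The values are FPKM, fragments counted per length of transcript and per total of mapped fragments, which allow levels of different genes to be set side by side. Where 3 values are set against 3, they are those of Ang II replicates 1, 2 and 3 and then of Tec replicates 1, 2 and 3. The sums of FPKM were 516699 to 592733 in the Ang II libraries and 581800 to 629989 in the Tec libraries. The share held by the mitochondrial genome was 41.3%, 40.1% and 48.9% in Ang II replicates 1, 2 and 3 and 51.3%, 49.6% and 52.5% in Tec replicates 1, 2 and 3. Ang II replicate 3 stood apart from its own group, since its log2 values correlated across genes, which are not replicates, at 0.982 and 0.972 with Ang II replicates 1 and 2 but 0.991, 0.984 and 0.993 with Tec replicates 1, 2 and 3. Results are therefore given with and without this library. It was picked from these same values, and removing the Ang II library most like the Tec libraries favours a larger difference and a smaller spread. Adjusted p without it are therefore given as description and not as a test. The 10 ventricular cardiomyocyte markers summed to 10800 to 13600 FPKM in the 6 libraries, and each of the 7 lymphocyte markers was under 0.5 FPKM throughout.

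Most receptors and SMADs of the family were expressed in these hearts, and most ligands fell below the limit for low values. With a limit of at least 0.5 FPKM in at least 3 of the 6 libraries, 33 of the 54 genes entered the test, and 17 of the 26 ligand genes did not, against 4 of the 21 receptor and SMAD genes. Of the 21 genes not tested, 15 never reached 0.5 FPKM, 4 did so in 1 library and 2 in 2 libraries. Inhbc, a subunit made mainly in liver, was listed at 0 in all libraries. The 11 genes with a mean of at least 5 FPKM were led by the matrix protein gene Ltbp4 at 38.4 FPKM, followed by the BMP receptor Bmpr1a at 13.0, the ligand Tgfb3 at 10.1, the shared SMAD Smad4 at 7.92 and the TGF-β receptor Tgfbr2 at 7.12. Bmp6 at 6.9 FPKM was the only BMP ligand among them, and the plot of all tested genes by library shows the whole order.

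**Figure D1:**
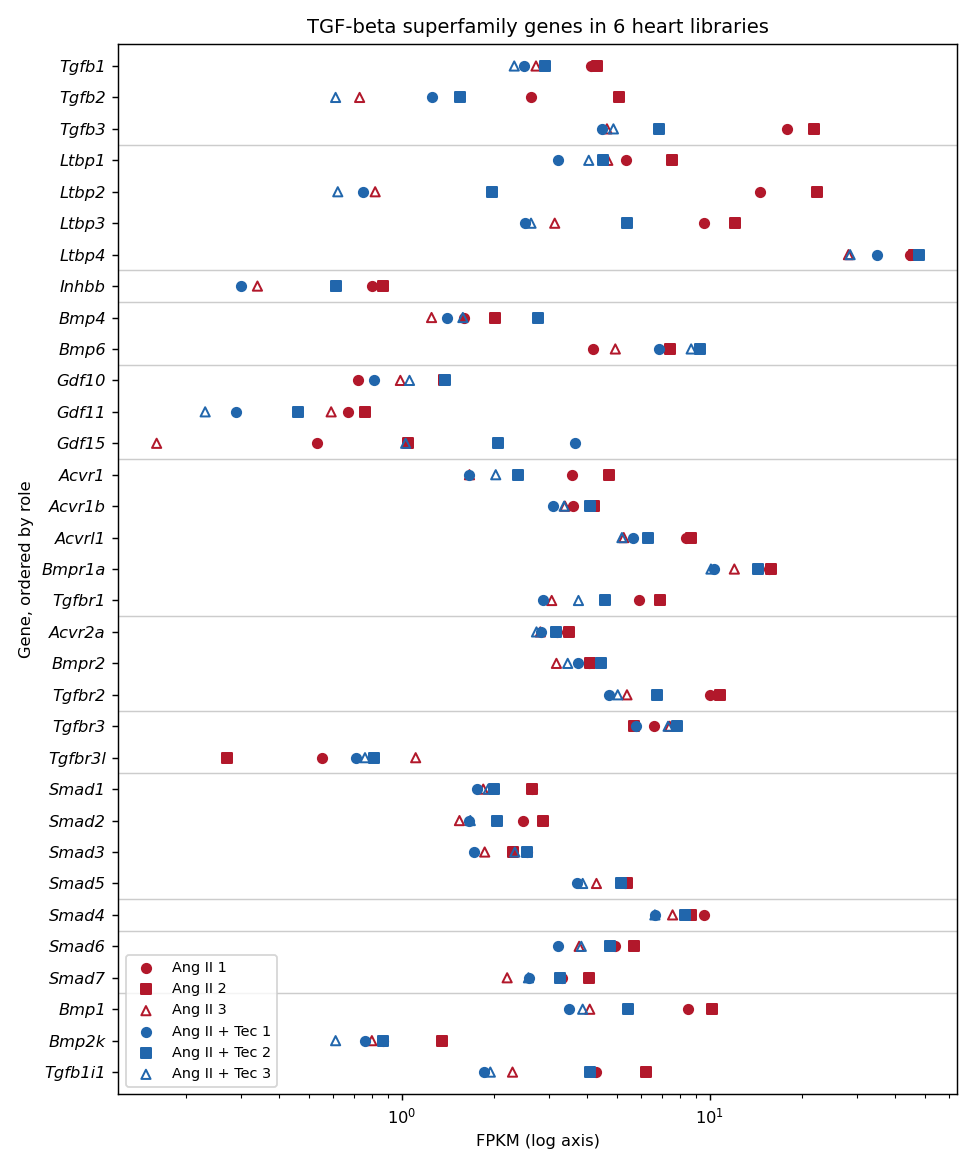
FPKM (log axis) of the 33 tested TGF-β superfamily genes, ordered by role, with 1 point per library (red, Ang II; blue, Ang II + Tec; filled circle, filled square and open triangle for replicates 1, 2 and 3). For genes such as Tgfb3, Ltbp2 and Ltbp3 the red circle and square lie to the right of the other 4 libraries, and the red triangle of Ang II replicate 3 lies among the blue points.

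No gene of the family was called different between the groups. With limma on log2(FPKM + 1) and Benjamini-Hochberg adjustment over the 13089 genes tested, 24 genes (0.183%) had an adjusted p under 0.05 and 21 of them (0.16%) also a log2 fold change of at least 1 in size. The lowest adjusted p in the family was 0.222 for Gdf11 and 0.228 for Gdf15. Gdf11 reached 0.5 FPKM in the 3 Ang II libraries and in 0 of the 3 Tec libraries, so it entered the test only by being higher in Ang II and had to differ, and nothing is read from its p or from its place in the counts that follow. At an unadjusted p under 0.05, 3 of the 33 genes (9.09%) were lower with Tec (Gdf11, Ltbp1 and Ltbp2), against 16.5% of all tested genes, and 2 (6.06%) were higher (Gdf15 and Bmp6), against 2.09%. In 2 genes (6.06%), Gdf11 and Ltbp1, every Tec library lay below every Ang II library, which held for 18.9% of all tested genes. In 0 genes did every Tec library lie above, against 2.9%. The scale understates fold changes of genes with low FPKM, and an exact permutation test of 3 against 3 libraries cannot go below 0.1.

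Lower values with Tec were the rule in this table. Of the 33 genes, 26 had a log2 fold change below 0 (78.8%), with a median of -0.22, beside 80% and a median of -0.17 for all tested genes. After the libraries were rescaled by the median of their ratios over tested genes, the median of all genes was 0.00 and that of the family -0.05, and 21 of the 33 genes were lower. The fold changes below are to be read against that shift of all genes.

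The pattern most genes of the family shared was one of libraries. In 22 of the 33 genes (66.7%) Ang II replicates 1 and 2 were the 2 highest libraries, against 49.7% of all tested genes. In 23 of the 33 (69.7%), Ang II replicate 3 lay within the range of the Tec libraries, against 55.7% of all tested genes. When Ang II replicate 3 was left out, 12 genes had an adjusted p under 0.05, and all 12 were lower with Tec: Tgfb1, Tgfb2, Tgfb3, Ltbp1, Ltbp2, Ltbp3, Gdf11, Tgfbr1, Tgfbr2, Acvr1, Acvrl1 and Bmp1. Of all tested genes, 26.2% were then called lower and 2.61% higher. The library left out was picked from these same values, so these calls are description only. When Ang II replicate 2 was left out instead, 0 genes of the family had an adjusted p under 0.05. Without Ang II replicate 3, every Tec library lay below both other Ang II libraries in 22 family genes, against 53.7% of all tested genes. Without Ang II replicate 2 this held for 2 family genes, against 21.3%.

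**Figure D2:**
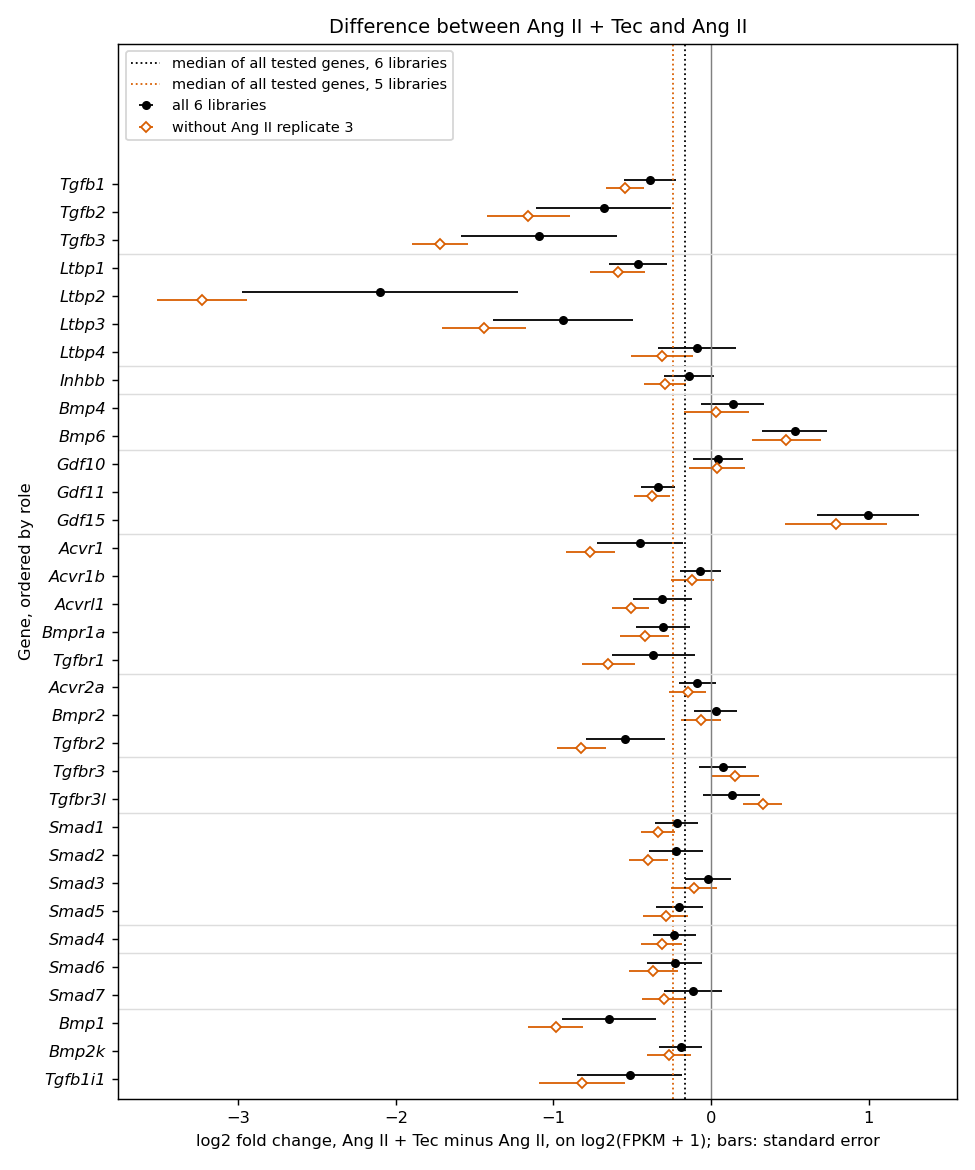
Log2 fold change (Ang II + Tec minus Ang II, on log2(FPKM + 1)) of the 33 tested genes, with the standard error as bars; filled circles use all 6 libraries and open diamonds leave out Ang II replicate 3, and dotted lines mark the median of all tested genes in each fit. Tgfb1, Tgfb2, Tgfb3, Ltbp2 and Ltbp3 move further to the left without that library, Ltbp2 from -2.10 to -3.23, while Bmp6 and Gdf15 stay above 0.

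Among the TGF-β ligands, all 3 had lower means of log2(FPKM + 1), or log2 means, with Tec, also after each rescaling, and none passed the test. Tgfb3 (ENSMUSG00000021253, chromosome 12, 86056745 to 86079041 on GRCm38, minus strand) encodes a ligand needed for palate fusion in the embryo, and it was at 17.9, 21.8 and 4.64 FPKM in Ang II replicates 1, 2 and 3 and at 4.46, 6.84 and 4.87 FPKM in Tec replicates 1, 2 and 3. Ang II replicates 1 and 2 were far above the other 4 libraries, and Ang II replicate 3 lay between Tec replicates 1 and 3. The group means were 14.8 ± 9.0 and 5.39 ± 1.27 FPKM (SD, n = 3 each), a log2 fold change of -1.09 ± 0.49 (SE) with a limma adjusted p of 0.282. Leaving out Ang II replicate 3 gave a log2 fold change of -1.72 ± 0.18 and an adjusted p of 0.00221, and leaving out Ang II replicate 2 gave -0.71 ± 0.46 and 0.66.

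Tgfb2 (chromosome 1, 186622792 to 186705989, minus strand), a ligand that also acts in heart development, was at 2.63, 5.06 and 0.73 FPKM across the Ang II hearts and 1.25, 1.55 and 0.61 FPKM across the Tec hearts. Again only Ang II replicates 1 and 2 stood above all Tec libraries, and the log2 fold change was -0.68 ± 0.43 (adjusted p = 0.383), or -1.16 ± 0.26 (adjusted p = 0.0196) without Ang II replicate 3 and -0.26 ± 0.33 (adjusted p = 0.806) without Ang II replicate 2. Tgfb1 (chromosome 7, 25687002 to 25705077, plus strand), the ligand most studied in fibrosis, was at 4.13, 4.31 and 2.73 FPKM against 2.50, 2.92 and 2.32 FPKM. Its groups overlapped by 1 library, since Tec replicate 2 lay above Ang II replicate 3. Its log2 fold change was -0.39 ± 0.16 (adjusted p = 0.268), and -0.55 ± 0.12 (adjusted p = 0.0183) without Ang II replicate 3. By FPKM, Tgfb3 was the most abundant of the 3 ligands in every library.

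The makeup of the ligands differed along the same libraries. The 3 ligands together summed to 24.7 and 31.2 FPKM in Ang II replicates 1 and 2, and to between 7.8 and 11.3 FPKM in the other 4 libraries. Tgfb3 made up 72.6% and 70.0% of this sum in the former and 54.3% to 62.4% in the latter. The FPKM ratio of Tgfb3 to Tgfb1 was 4.33 and 5.06 in Ang II replicates 1 and 2, 1.7 in Ang II replicate 3, and 1.78, 2.34 and 2.1 in the Tec libraries.

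The LTBPs, which anchor latent TGF-β to fibrillin and fibronectin in the matrix, also differed between libraries of one group. Ltbp2 (ENSMUSG00000002020, chromosome 12, 84783212 to 84876532, minus strand) belongs to this family by structure but is not known to bind latent TGF-β and is a protein of elastic microfibrils. It was at 14.6, 22.4 and 0.82 FPKM across the Ang II hearts and 0.75, 1.97 and 0.62 FPKM across the Tec hearts, a range from 22.4 down to 0.62 FPKM. Ang II replicate 3 was below Tec replicate 2, and the log2 fold change was -2.10 ± 0.88 (adjusted p = 0.265), and -3.23 ± 0.29 (adjusted p = 0.00148) without Ang II replicate 3. When Ang II replicate 2 was left out, it was -1.39 ± 0.80 (adjusted p = 0.633).

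Ltbp3 (chromosome 19, 5740904 to 5758532, plus strand), which helps TGF-β to be secreted, was at 9.59, 12.1 and 3.14 FPKM against 2.52, 5.39 and 2.63 FPKM, with a log2 fold change of -0.94 ± 0.44 (adjusted p = 0.294) or -1.44 ± 0.26 (adjusted p = 0.0106) without Ang II replicate 3 and -0.61 ± 0.42 (adjusted p = 0.674) without Ang II replicate 2. Ltbp1 (chromosome 17, 75005568 to 75392512, plus strand), the main carrier of latent TGF-β1, was at 5.37, 7.57 and 4.67 FPKM against 3.22, 4.52 and 4.05 FPKM. Its groups did not overlap, by the margin between Ang II replicate 3 at 4.67 and Tec replicate 2 at 4.52, and after quantile normalization or scaling to the nuclear sum they did. The log2 fold change of Ltbp1 was -0.47 ± 0.19 (adjusted p = 0.254), and -0.30 ± 0.17 (adjusted p = 0.628) without Ang II replicate 2. Ltbp4 (chromosome 7, 27305136 to 27337692, minus strand), needed for elastic fibres, was at 44.8, 45.9 and 28.2 FPKM against 35.0, 48.0 and 28.6 FPKM. Its highest library was Tec replicate 2, and its log2 fold change of -0.09 ± 0.25 (adjusted p = 0.840) turned to 0.14 after median of ratios scaling and 0.15 after quantile normalization.

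Summed over the 4 genes, the LTBPs were at 74.4 and 88.0 FPKM in Ang II replicates 1 and 2, 36.9 FPKM in Ang II replicate 3 and 41.5, 59.8 and 35.9 FPKM in the Tec libraries. Ltbp2 made up 19.6% and 25.4% of the sum in Ang II replicates 1 and 2 and 1.73% to 3.29% in the other 4 libraries. Ltbp4 made up 60.2% and 52.2% in the former and 76.6% to 84.4% in the latter.

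**Figure D3:**
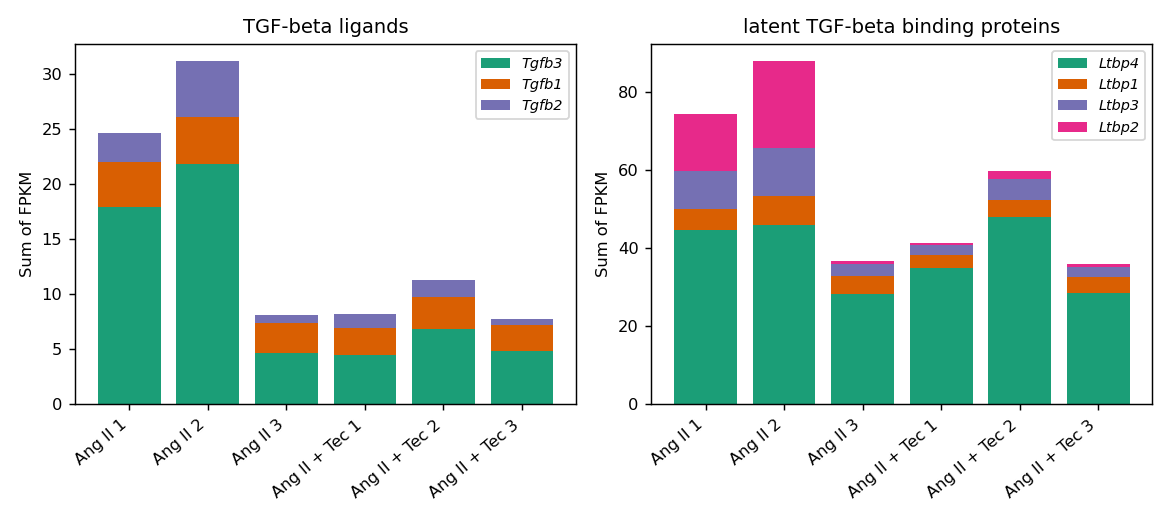
Summed FPKM per library of the 3 TGF-β ligand genes (left) and the 4 LTBP genes (right), with each gene as a coloured part of the bar, 1 bar per library and axes from 0. The bars of Ang II replicates 1 and 2 are the tallest in both panels, and the Ltbp2 part is broad only in those 2 libraries.

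Among the other ligands, Gdf15, Bmp6 and Gdf11 had an unadjusted p under 0.05. The libraries of Gdf15 and Bmp6 were not ordered as those of Tgfb3, while Gdf11, like Tgfb3, was highest in Ang II replicates 1 and 2. Gdf15 (ENSMUSG00000038508, chromosome 8, 70629393 to 70632456, minus strand), a stress-induced hormone that acts on the hindbrain, was at 0.53, 1.05 and 0.16 FPKM across the Ang II hearts and 3.66, 2.05 and 1.03 FPKM across the Tec hearts. The groups overlapped only by Ang II replicate 2 at 1.05 and Tec replicate 3 at 1.03. The log2 fold change was 1.00 ± 0.33, the highest in the family, with an adjusted p of 0.228, and 0.79 ± 0.32 (adjusted p = 0.101) without Ang II replicate 3.

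Bmp6 (chromosome 13, 38345107 to 38500302, plus strand), the endothelial BMP that induces hepcidin in the liver, was at 4.18, 7.45 and 4.94 FPKM against 6.84, 9.28 and 8.71 FPKM. Only Ang II replicate 2 reached into the Tec range, and the log2 fold change was 0.53 ± 0.20 (adjusted p = 0.246). Gdf11 (ENSMUSG00000025352, chromosome 10, 128882295 to 128891718, minus strand), a close relative of myostatin, was at 0.67, 0.76 and 0.59 FPKM against 0.29, 0.46 and 0.23 FPKM. All 3 Tec libraries were below the 0.5 FPKM limit that let the gene into the test through its Ang II libraries, so its separation and p are given as values only. The log2 fold change was -0.34 ± 0.11 (adjusted p = 0.222), and -0.37 ± 0.12 (adjusted p = 0.0493) without Ang II replicate 3. After median of ratios scaling Gdf15 and Bmp6 did not overlap between the groups, together with Acvr2a and Bmpr2, when 10.9% of all tested genes were higher in every Tec library.

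Other ligands were low. Bmp4, a BMP of vessels and the developing heart, was at 1.59, 2.01 and 1.25 FPKM against 1.40, 2.77 and 1.58 FPKM, with a log2 fold change of 0.14 ± 0.20 and groups that overlapped. Bmp2 was at 0.57, 0.41 and 0.21 FPKM against 0.28, 0.45 and 0.36 FPKM, and Bmp7 at 0.10 to 0.19 FPKM in all 6 libraries, and neither was tested. Of the activin subunits, Inhba was at 0.68, 1.51 and 0.17 FPKM against 0.18, 0.44 and 0.14 FPKM, with the same pair of libraries highest, and it was not tested because only 2 libraries reached 0.5 FPKM. Inhbb was at 0.80, 0.87 and 0.34 FPKM against 0.30, 0.61 and 0.61 FPKM (log2 fold change -0.14 ± 0.16). Gdf10 had means of 1.03 and 1.08 FPKM. Gdf6, a ligand of joints and the eye, reached 3.27 FPKM in Ang II replicate 2 and was between 0.11 and 0.67 FPKM elsewhere. The remaining BMP, GDF and activin genes that were not tested were never above 0.67 FPKM.

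Of the 10 tested receptor and co-receptor genes, 6 (60%) had Ang II replicates 1 and 2 as their highest libraries, against 49.7% of all tested genes. These were Tgfbr1, Tgfbr2, Acvr1, Acvrl1, Acvr2a and Bmpr1a. Tgfbr2 (chromosome 9, 116084293 to 116175360, minus strand), the type II receptor of TGF-β, was at 10.0, 10.8 and 5.39 FPKM across the Ang II hearts and 4.71, 6.77 and 5.03 FPKM across the Tec hearts. Ang II replicate 3 was below Tec replicate 2, and the log2 fold change was -0.55 ± 0.25 (adjusted p = 0.287), and -0.82 ± 0.15 (adjusted p = 0.011) without Ang II replicate 3. Its partner Tgfbr1, the type I receptor that phosphorylates SMAD2 and SMAD3, was at 5.88, 6.88 and 3.07 FPKM against 2.88, 4.58 and 3.75 FPKM, with a log2 fold change of -0.37 ± 0.26. Acvr1, a type I receptor for BMPs, was at 3.58, 4.70 and 1.66 FPKM against 1.65, 2.38 and 2.02 FPKM (-0.45 ± 0.27). In both genes Ang II replicate 3 lay within the Tec range, and without it the log2 fold changes were -0.65 and -0.77. Without Ang II replicate 2 they were -0.18 for Tgfbr1 and -0.22 for Acvr1, with adjusted p of 0.828 and 0.779, and that of Tgfbr1 was -0.23 without Tec replicate 1.

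Acvrl1, the type I receptor of endothelial cells for BMP9 and BMP10, was at 8.37, 8.72 and 5.26 FPKM against 5.64, 6.30 and 5.19 FPKM (log2 fold change -0.31 ± 0.19, or -0.19 without Ang II replicate 2). Bmpr1a, the most abundant receptor gene of the family, was at 15.5, 15.8 and 12.0 FPKM against 10.4, 14.3 and 10.1 FPKM (-0.30 ± 0.17). Bmpr2, the type II receptor of BMPs that is mutated in pulmonary hypertension, was at 4.06, 4.10 and 3.18 FPKM against 3.73, 4.43 and 3.46 FPKM, with a log2 fold change of 0.03 ± 0.14 and 0.22 after median of ratios scaling. Tgfbr3 (betaglycan), the co-receptor that presents TGF-β2, was at 6.61, 5.67 and 7.42 FPKM against 5.77, 7.83 and 7.33 FPKM (0.07 ± 0.15), and the order of its libraries was unlike that of Tgfbr2, since Ang II replicate 3 was among its highest.

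All 5 tested type I receptors, of which 1 was the activin receptor Acvr1b, had lower log2 means with Tec, with a median log2 fold change of -0.31, and 4 of the 5 were lower after median of ratios scaling or quantile normalization. After median of ratios scaling Acvr1b was at 0.12. Both tested co-receptors, Tgfbr3 and Tgfbr3l, had higher log2 means in all 3 rescalings as well. None of these genes passed the test with all 6 libraries. Without Ang II replicate 3, Tgfbr1, Acvr1, Acvrl1 and Tgfbr2 had an adjusted p under 0.05, which is given as description.

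The log2 fold changes of the SMAD genes were small. Smad4, the shared partner of all receptor-regulated SMADs, was at 9.59, 8.73 and 7.58 FPKM across the Ang II hearts and 6.67, 8.29 and 6.64 FPKM across the Tec hearts (log2 fold change -0.23 ± 0.14, adjusted p = 0.357). Smad2 was at 2.47, 2.87 and 1.54 FPKM against 1.65, 2.04 and 1.67 FPKM (-0.22 ± 0.17). Smad3, which with Smad2 carries TGF-β signals, was at 2.55, 2.30 and 1.86 FPKM against 1.72, 2.55 and 2.33 FPKM. The Smad3 groups overlapped across nearly their whole range, and its log2 fold change of -0.02 ± 0.15 turned to 0.14 and 0.16 after median of ratios scaling and quantile normalization. The ratio of Smad2 to Smad4 was 0.203 to 0.329 in the 6 libraries.

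Smad6, induced by BMP and an inhibitor of BMP receptors, was at 4.93, 5.70 and 3.77 FPKM against 3.21, 4.75 and 3.83 FPKM (log2 fold change -0.23 ± 0.17). Smad7, an inhibitor induced by TGF-β, was at 3.31, 4.06 and 2.20 FPKM against 2.59, 3.26 and 2.58 FPKM (-0.12 ± 0.19), and it was at 0.06 and 0.08 after median of ratios scaling and quantile normalization. Ang II replicate 3 was the lowest library for Smad7. All 7 tested SMAD genes had lower log2 means with Tec on the deposited scale, with log2 fold changes between -0.23 and -0.02, near the median of all genes. With or without Ang II replicate 3, 0 of them had an adjusted p under 0.05.

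A few genes matched by name are not ligands, receptors or SMADs. Bmp1 encodes the protease that trims procollagen, and was at 8.52, 10.2 and 4.08 FPKM against 3.5, 5.42 and 3.87 FPKM, with a log2 fold change of -0.65 ± 0.30 that was -0.99 ± 0.17 (adjusted p = 0.0097) without Ang II replicate 3 and -0.42 ± 0.29 (adjusted p = 0.671) without Ang II replicate 2. Tgfb1i1 (Hic-5), a focal adhesion protein, had means of 4.26 and 2.63 FPKM, and the kinase gene Bmp2k of 1.01 and 0.747 FPKM.

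Of 19 listed genes that TGF-β is known to induce, 17 (89.5%) had Ang II replicates 1 and 2 as their highest libraries, against 49.7% of all tested genes. The list was chosen for this purpose. It and the lists that follow were chosen with earlier results of these data known, so their counts are description and not a test. All 19 response genes had lower log2 means with Tec, with a median log2 fold change of -1.40. Of the 19 genes, 8 had an unadjusted p under 0.05 and 0 an adjusted p under 0.05. Among all tested genes, 80% were lower, and 16.5% were lower at an unadjusted p under 0.05. These shares are also the background for the lists and markers that follow. Of the 19, Ltbp2 and Smad7 are also in the family. The periostin gene Postn was at 130, 178 and 10.5 FPKM across the Ang II hearts and 6.13, 11.3 and 4.84 FPKM across the Tec hearts, and the collagen gene Col1a1 at 82.7, 100.4 and 7.09 FPKM against 4.20, 8.06 and 3.83 FPKM. In both genes Ang II replicate 3 was lower than Tec replicate 2. Ccn2, the connective tissue growth factor, was at 155, 457 and 17.9 FPKM against 48.4, 134 and 34.2 FPKM, so that its lowest library was Ang II replicate 3. Col3a1, Col1a2 and Postn had the lowest unadjusted p together with Col1a1, with log2 fold changes of -2.72, -2.33, -3.02 and -2.75. Leaving out Ang II replicate 3, 15 of the 19 had an adjusted p under 0.05, all lower, when 26.2% of all tested genes were lower at that threshold, and after median of ratios scaling 17 of the 19 were lower.

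**Figure D4:**
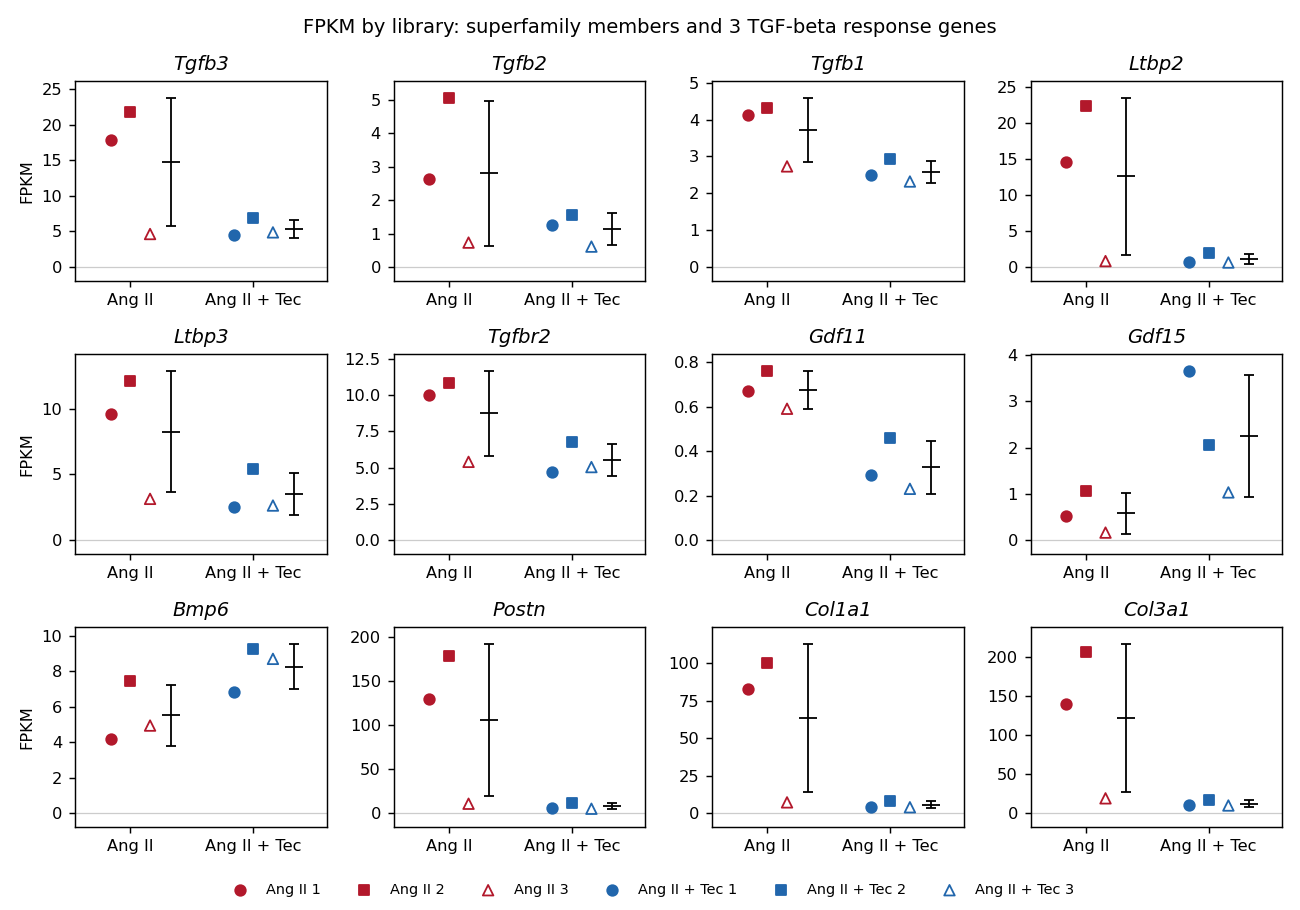
FPKM (linear axes including 0) of 9 superfamily genes and of the TGF-β response genes Postn, Col1a1 and Col3a1, with 1 point per library and the mean ± SD of each group (n = 3) as a bar beside its points. In Tgfb3, Ltbp2, Postn and Col1a1 the 2 high points are Ang II replicates 1 and 2 and the open triangle of Ang II replicate 3 sits near the blue points, whereas in Gdf15 the 2 highest points are Tec replicates 1 and 2.

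Of 9 tested BMP response genes, Smad6 and Smad7 of the family among them, 8 had lower log2 means with Tec, with a median of -0.17, equal to that of all genes, 0 had an unadjusted p under 0.05, and after median of ratios scaling 5 were lower. Without Ang II replicate 3, 3 of the 9 had an adjusted p under 0.05, all lower, beside 26.2% of all tested genes. Id1, the transcription inhibitor most directly induced by BMPs, was at 41.7, 44.8 and 44.4 FPKM across the Ang II hearts and 35.4, 39.1 and 46.4 FPKM across the Tec hearts. Its highest library was Tec replicate 3. Id3 was at 45.5, 63.1 and 28.5 FPKM against 25.2, 31.1 and 28.6 FPKM, with a log2 fold change of -0.61 ± 0.27 (adjusted p = 0.276).

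Extracellular antagonists held the lowest p of the pathway lists. Bmper, a secreted modulator of BMPs made by endothelium, was at 3.12, 2.73 and 2.07 FPKM against 0.66, 1.26 and 1.3 FPKM. Its groups did not overlap, Ang II replicate 3 included, and its log2 fold change was -0.82 ± 0.18 (adjusted p = 0.185). Lefty1, an inhibitor of Nodal, was at 1.56, 1.85 and 1.31 FPKM against 0.81, 0.87 and 0.97 FPKM, also without overlap (-0.45 ± 0.12, adjusted p = 0.201). Fstl1, a follistatin-like glycoprotein of fibroblasts, was at 85.3, 154 and 18.0 FPKM against 16.1, 21.7 and 11.8 FPKM, with overlap. Fst (follistatin, which binds activins) was at 0.68, 2.74 and 0.16 FPKM against 0.08, 0.47 and 0.11 FPKM and was not tested. Of the 12 tested antagonists, 10 had lower log2 means with Tec, 3 at an unadjusted p under 0.05 and 0 at an adjusted p under 0.05. When Ang II replicate 3 was left out, 7 had an adjusted p under 0.05, all lower, beside 26.2% of all tested genes.

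Of 10 tested genes for the activation and matrix storage of TGF-β, 9 had lower log2 means with Tec, with a median of -0.61, and 3 had an unadjusted p under 0.05. These were the membrane protease gene Mmp14, which did not overlap between groups (3.27, 4.35 and 1.03 FPKM against 0.72, 1.02 and 0.66 FPKM, a margin set by Ang II replicate 3), the fibrillin gene Fbn1 and the integrin gene Itgav, with log2 fold changes of -1.0, -1.73 and -0.72. Without Ang II replicate 3, 8 of the 10 had an adjusted p under 0.05, all lower, beside 26.2% of all tested genes, which is also the background for the lists that follow. Of the 8 co-receptor genes tested, Tgfbr3 included, 6 had lower log2 means, 2 of them at an unadjusted p under 0.05 (the repulsive guidance molecule gene Rgma at -0.40 and the neuropilin gene Nrp1 at -0.38), and 2 had an adjusted p under 0.05 without Ang II replicate 3. Eng (endoglin, a co-receptor of endothelial cells) was at 24.8, 32.6 and 24.7 FPKM against 24.5, 33.9 and 25.1 FPKM and did not separate the groups. Of 19 intracellular regulators, 18 had lower log2 means with Tec, but 8 after median of ratios scaling, and 2 had an unadjusted p under 0.05, the FK506-binding protein gene Fkbp1a at -0.57 and the ubiquitin ligase gene Smurf1 at -0.36. With Ang II replicate 3 left out, 6 of the 19 had an adjusted p under 0.05, all lower. With all 6 libraries, 0 genes of these 3 lists had an adjusted p under 0.05.

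Markers of other cell types differed in how they ordered the libraries. Their counts stand beside 80% of all tested genes lower with Tec, and 16.5% lower at an unadjusted p under 0.05. The 8 activated fibroblast markers, which include the response genes Postn and Lox, summed to 314, 427 and 28.2 FPKM across the Ang II hearts and 17.2 to 31.7 FPKM across the Tec hearts, and 8 of 8 were lower with Tec, 7 at an unadjusted p under 0.05. Of these, Cthrc1 entered the test only through its Ang II libraries. The 10 macrophage markers summed to 368, 554 and 286 FPKM against 195, 194 and 213 FPKM, so that Ang II replicate 3 lay above every Tec library, unlike its place for Tgfb3 and Ltbp2. Of the 10, 10 were lower, 9 at an unadjusted p under 0.05, and 7 did not overlap between the groups, against 18.9% of all tested genes. The 10 fibroblast markers summed to 903, 970 and 426 FPKM against 479, 892 and 573 FPKM (9 of 10 lower, 4 at an unadjusted p under 0.05). A large part of these sums was Gsn, the only marker of the 10 that was higher with Tec. Gsn was at 333, 289 and 226 FPKM against 307, 606 and 375 FPKM. The 8 markers of smooth muscle and pericytes summed to 245 to 472 FPKM against 207 to 364 FPKM (5 of 8 lower). The 10 endothelial markers summed to 198 to 220 FPKM against 174 to 207 FPKM (9 of 10 lower, 2 at an unadjusted p under 0.05, and 3 of 10 lower after median of ratios scaling). No marker of these lists had an adjusted p under 0.05 with all 6 libraries, and none was at 0 in all libraries. Without Ang II replicate 3, 8 of 8 activated fibroblast, 9 of 10 macrophage and 8 of 10 fibroblast markers were lower at an adjusted p under 0.05, 0 endothelial markers passed, and 1 marker of smooth muscle and pericytes was higher. The part of these cell types in the values of the ligands and LTBPs was not tested.

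The libraries also differed in atrial transcripts. The 8 atrial markers summed to 6280, 10400 and 269 FPKM across the Ang II hearts and 917, 5180 and 145 FPKM across the Tec hearts. Most of each sum was Nppa, which is also on the list of cardiac stress genes. Nppa was at 5568, 9456 and 256 FPKM against 906, 3489 and 125 FPKM, so the sums largely follow this gene. The atrial myosin light chain gene Myl7 was at 419, 332 and 0 FPKM against 0, 1040 and 1.58 FPKM, so Ang II replicates 1 and 2 and Tec replicate 2 carried this transcript. The 8 markers of valve and epicardium summed to 17.6, 26.4 and 1.77 FPKM against 2.28, 22.0 and 6.56 FPKM. Tgfb3, Ltbp2 and Tgfb2 were each highest in Tec replicate 2 among the Tec libraries. This order was not particular to them: all 54 family genes summed to 133, 185 and 132 FPKM in Tec replicates 1, 2 and 3. The part of atrial tissue in these values was not tested.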

How the data were processed

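RNA of mouse heart tissue was enriched for poly(A), and paired-end libraries were sequenced. The authors trimmed reads with Cutadapt and deposited FPKM per gene, relative to transcript length and mapped fragments. The submitters' processing notes name Bowtie 0.12.2, HISAT2 2.0, StringTie 1.3.0 and the build mm8 with no roles, but the coordinates in the table match GENCODE M21 on GRCm38 for 27947 of 30832 shared genes (90.6%), so GRCm38 positions are given. FPKM keep no read totals: depth is known only as a rough relative value (0.99 to 1.2), and no counting interval can be given. No pair of libraries was a duplicate.

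From the deposited FPKM, log2(FPKM + 1) of genes with at least 0.5 FPKM in at least 3 libraries was fitted with limma 3.58.1 (lmFit, eBayes with trend) in R 4.3.3, 3 against 3 libraries with no covariate, and p-values were adjusted by Benjamini-Hochberg over 13089 genes. On simulated data with 200 genes changed by a log2 fold change of 2, 198 were recovered with 12 false calls. Genes named with every library are those at an unadjusted p under 0.05, those whose groups do not overlap, and a fixed core of ligands, receptors, SMADs and LTBPs. Of the other pathway lists, at most 4 genes at an unadjusted p under 0.05 and a fixed core are named, and Gdf6, Myl7 and the means of other members were added after their values were seen. The members and the lists were chosen with earlier results of these data known. Alternatives changed the pseudocount, filter, scaling, block, variance trend and library weights, and left out each library in turn. Overlapping genes were counted by a method whose use of strand is not given in the sources used here: 18 members overlap a gene on the opposite strand (Tgfb2, Tgfb3, Ltbp2, Ltbp3 and Bmp6 among them) and 6 a gene on the same strand, and reads of such pairs cannot be told apart. The values of 2 list genes are not reported here.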

Additional observations from a re-analysis of the deposited data

How the results depend on the processing

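Of the fold changes of named genes under settings other than leaving out a library, 214 kept their direction and their side of the threshold, 11 passed it and 10 turned direction. With 1 library left out the numbers were 122, 11 and 11. The genes called different numbered 21 as reported, 3 without the filter, 8 with a mean FPKM of at least 2 and 522 with library weights, whose estimation stopped before full convergence, and from 2 to 557 with 1 library left out (557 without Ang II replicate 3). Family genes at an adjusted p under 0.05 numbered 14 with library weights (27.1% of all genes). These weights ran from 0.12 for Ang II replicate 1 to 9.96 for Tec replicate 3, so that fit leaned on 1 Tec library. With 1 library left out such genes numbered 0 to 12, 12 only without Ang II replicate 3, and 0 in the other settings. Family genes lower at an unadjusted p under 0.05 numbered 1 with a mean FPKM of at least 2, with median of ratios scaling (8.2% of all genes) and with quantile normalization (7.85%), 21 with library weights (42.3%), and 0 to 18 with 1 library left out (18 without Ang II replicate 3, when 39.3% of all genes were). Higher ones numbered 1 with a mean FPKM of at least 2 (2.1% of all genes) and 0 with library weights (4.13%). With 1 library left out they numbered 1 to 2 (1.12% to 4.32%). Family genes without overlap that were lower with Tec numbered 4 without the filter (11.6% of all genes). They numbered 1 with a mean FPKM of at least 2 (20.6%) and 1 with the nuclear sum (15.6%). With 1 library left out they numbered 2 to 22. The 22 were without Ang II replicate 3, against 53.7% of all genes, and 13 were without Tec replicate 2, against 44.3%. Those higher numbered 4 with median of ratios scaling (10.9% of all genes), 4 with quantile normalization (11.9%) and 1 with the nuclear sum (3.03%). With 1 library left out they numbered 0 to 2 (3.61% to 6.84%). The cause of these changes was not tested.

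Among the genes named with every library, directions turned in 6. With median of ratios scaling and quantile normalization, Ltbp4 was at 0.14 and 0.15, Smad3 at 0.14 and 0.16 and Smad7 at 0.063 and 0.083. Smad3 was at 0.004 with the nuclear sum and with library weights, which also gave -0.12 for Bmp4 and -0.11 for Bmpr2. With 1 library left out, the log2 fold changes ranged from -0.311 to 0.079 for Ltbp4, -0.106 to 0.093 for Smad3, -0.298 to 0.032 for Smad7, -0.062 to 0.263 for Bmp4, -0.065 to 0.09 for Bmpr2 and -0.014 to 0.187 for Tgfbr3. Of the other tested genes, Acvr1b, Acvr2a, Smad5, Gdf10 and Tgfbr3l also turned in at least 1 setting.

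The labels number the replicates 1 to 3 in both groups. Deviations from the group means correlated across genes at -0.04, 0.43 and 0.38 for same-numbered libraries. Those of differently numbered libraries correlated at -0.44 to 0.23. So few values cannot settle whether the numbers pair the libraries. With the replicate block, 10 family genes were lower at an unadjusted p under 0.05 (22.9% of all genes) and 0 passed the adjusted threshold. The deposited values limit any statement to a spread of 3 libraries per group.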

Other observations

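Superfamily ligands outside the name rule were low or came from few libraries. Bmp10, a ligand made by atrial cardiomyocytes, was at 1.11, 0.06 and 0 FPKM in Ang II replicates 1, 2 and 3 and at 0, 23.94 and 0 FPKM in Tec replicates 1, 2 and 3, so that nearly all of it lay in 1 library. Mstn (myostatin, a brake on muscle growth and the closest relative of Gdf11) was at 0.46, 0.40 and 0.50 FPKM across the Ang II hearts and 0.13, 0.31 and 0.20 FPKM across the Tec hearts. Its FPKM were too low to enter the test. Inha, the inhibin alpha subunit, was at 2.84, 2.41 and 2.72 FPKM against 2.49, 3.37 and 2.84 FPKM, and Nodal and Amh were never above 0.11 FPKM.

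Of the cardiac stress genes, 7 were tested and 5 had lower log2 means with Tec, beside 80% of all tested genes. Gdf15, which was higher, was the only 1 at an unadjusted p under 0.05, beside 2.09% of all tested genes higher at that threshold. Without Ang II replicate 3, 6 were lower, 2 of them at an adjusted p under 0.05. Of all tested genes, 81.7% were then lower and 26.2% lower at that adjusted p. The natriuretic peptide gene Nppb was at 650, 1337 and 137 FPKM against 458, 438 and 93.7 FPKM, and the skeletal actin gene Acta1 at 196, 265 and 137 FPKM against 627, 195 and 89.2 FPKM. The log2 fold changes of Nppa, Nppb, Myh7, Xirp2 and Ankrd1 were -1.69, -0.88, -0.59, -0.49 and -0.19, and that of Acta1 was 0.20.

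Among the 21 family genes that were not tested, the groups of 2, Gdf3 and Acvr2b, did not overlap, with lower values in all Tec libraries. Without the filter, 11.6% of all genes were lower in every Tec library. Both genes were near 0 FPKM, and nothing is read from their separation. Gdf3 was never above 0.15 FPKM, and Acvr2b, a type II receptor of activins and myostatin, was at 0.21, 0.17 and 0.36 FPKM against 0.12, 0.16 and 0.16 FPKM.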
